A study of Mus musculus with 24 samples.

Results

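The genes described here are 10 transcripts that microglia, the resident macrophages of the brain, are known to raise in the disease-associated state: Apoe, Lpl, Spp1, Igf1, Cst7, Clec7a, Itgax, Axl, Gpnmb and Cd9. They were taken by symbol, and all 10 were found among the 20636 genes of the authors' tables. They were followed in bulk RNA-seq of microglia from C57BL/6J mice that were wild type (WT), heterozygous (HET) or homozygous (HOM) for a knockout allele of 3110043O21Rik, the mouse gene orthologous to C9orf72. Each genotype was sampled at 3 months and at 17 months, with 4 animals in each of the 6 groups, and no other agent or allele is labelled. The cells were taken with CD11b beads from whole brains without meninges, so other CD11b-bearing cells can be present. How the allele was made is not labelled, and neither is the animals' sex. Animals are named here by genotype and by their number in the tables.

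The disease-associated state was described in microglia that gather around amyloid plaques, and much of the same programme is seen in aged brains and in damaged white matter. Cells that enter it lower genes of the resting, homeostatic state and raise genes of lipid uptake, lysosomal digestion, adhesion and secreted factors, in part downstream of the lipid receptor Trem2. C9orf72 protein works in a complex with Smcr8 and Wdr41 and is tied to lysosomes, the organelles in which engulfed lipid and debris are digested.

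The targeted transcript followed the labels. In HET animals 3110043O21Rik stood at 42.6% of the WT mean TPM at 3 months and 48.5% at 17 months, and in HOM animals at 0.610% and 0.243%. Each of these 4 comparisons gave p = 0.0286 in an exact two-sided permutation test of 4 against 4, the smallest p this design allows. Libraries held between 21.8 and 33.8 M alignments at 3 months and between 16.7 and 46.4 M at 17 months. Y-linked transcripts marked 1 WT, 4 HET and 2 HOM animals as male at 3 months and 1 WT, 0 HET and 3 HOM animals at 17 months, so sex was uneven across genotypes. The 10 microglial markers examined were all detected, with summed levels of 28814 to 34918 TPM at 3 months and 17357 to 25523 TPM at 17 months. Neutrophil markers summed to 745 to 2363 TPM in WT, 1525 to 4905 in HET and 1753 to 4592 in HOM libraries at 3 months, and to 412 to 2487, 550 to 11134 and 2223 to 5966 TPM at 17 months. These ranges overlapped, but the WT medians were the lowest. In WT, HET and HOM libraries the medians were 1340, 2710 and 3696 TPM at 3 months, and 1312, 6032 and 4098 TPM at 17 months. The part of neutrophils in the genotype differences of the members was not tested. Marker sums of other cell types that did not overlap between 2 genotypes are given beside that comparison.

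The members lie on 6 chromosomes (mm10, GENCODE): Cst7 on 2, Spp1 on 5, Clec7a, Cd9 and Gpnmb on 6, Apoe, Axl and Itgax on 7, Lpl on 8 and Igf1 on 10. Cd9 and Igf1 are overlapped by annotated genes on the opposite strand and Spp1 by a gene on its own strand. The strand setting of the quantification is not given in the sources used here, so reads of these overlapping genes cannot be told apart. RefSeq promoter sequences (GRCm38.p6) were matched for 9 of the 10 members. Shown here are the 150 bases upstream of the gene for 3 members that later separate HOM from HET animals at 17 months (Spp1, Clec7a, Cd9), for Gpnmb, which took a course of its own, and for Itgax. Each is written 5′ to 3′ on the gene's strand, with capitals marking a match to 1 of the 4 motifs searched.
Spp1, chr5:104434961-104435110, plus strand: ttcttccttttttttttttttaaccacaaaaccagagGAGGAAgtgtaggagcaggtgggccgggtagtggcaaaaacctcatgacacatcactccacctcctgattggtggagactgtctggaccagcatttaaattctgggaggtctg
Clec7a, chr6:129472780-129472929, minus strand: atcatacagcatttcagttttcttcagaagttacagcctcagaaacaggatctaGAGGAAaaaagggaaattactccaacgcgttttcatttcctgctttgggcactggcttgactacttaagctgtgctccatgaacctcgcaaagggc
Cd9, chr6:125494792-125494941, minus strand: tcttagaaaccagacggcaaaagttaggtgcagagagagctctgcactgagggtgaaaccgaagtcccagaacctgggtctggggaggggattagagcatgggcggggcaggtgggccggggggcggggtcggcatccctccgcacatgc
Gpnmb, chr6:49036368-49036517, plus strand: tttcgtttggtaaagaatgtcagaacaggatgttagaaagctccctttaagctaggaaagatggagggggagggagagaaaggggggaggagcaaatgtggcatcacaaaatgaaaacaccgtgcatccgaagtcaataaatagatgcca
Itgax, chr7:128129397-128129546, plus strand: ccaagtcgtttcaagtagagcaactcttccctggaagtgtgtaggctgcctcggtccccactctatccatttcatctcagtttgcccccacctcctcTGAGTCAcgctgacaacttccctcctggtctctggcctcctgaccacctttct

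The capitals in Spp1 and Clec7a mark GAGGAA, the core bound by PU.1, the factor that sets macrophage identity. Those in Itgax mark a match to TGANTCA, a loose AP-1 pattern in which N is any base. Searched on both strands over the 250 bases before each RefSeq start, GAGGAA was found in 5 of the 9 members (Apoe, Spp1, Clec7a, Igf1, Axl) and in 23.3% of all 32851 promoters. The loose AP-1 pattern was found in 2 members, as TGAGTCA in Itgax and TGAATCA in Igf1, and in 6.75% of all promoters. The CACGTG box of the MiT/TFE lysosomal factors, held by 6.02% of all promoters, and the M-box core TCATGTG, held by 3.25%, were found in 0 of the 9. The 4 motifs do not overlap each other in the runs shown. A member was counted if any of its promoter sequences matched, and Apoe has 3 of them, Spp1 2 and Clec7a 2. The shares of all promoters count each sequence on its own, so the 2 kinds of count differ in unit. These matches describe the letters of the windows and were not tested against the expression values.

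At 3 months Apoe, the apolipoprotein that carries lipid between brain cells, was the most abundant member in WT animals, with 4700 ± 328 TPM (SD, n = 4). Cd9, a membrane tetraspanin, followed with 1065 ± 48.5 TPM, and the next member in the order, Clec7a, stood at 32.8 ± 5.31 TPM. Axl stood beside Clec7a, and below both, without overlap, came Cst7, Lpl, Itgax and Spp1 (15.0 ± 3.93 TPM), whose neighbours in the order overlapped between animals. Igf1, a growth factor, and Gpnmb, a glycoprotein of the endolysosomal membrane, were lowest, at 2.59 ± 0.444 and 2.44 ± 0.871 TPM, and overlapped. At 17 months the order was led again by Apoe (11994 ± 3200 TPM) and Cd9 (1602 ± 153 TPM), but Spp1 was now the third in all 3 genotypes, with 422 ± 165 TPM in WT animals, above Cst7 without overlap. From Cst7 down to Itgax neighbouring members overlapped in WT animals, and Gpnmb and Igf1 lay below them. TPM is scaled by transcript length, so these levels can be set beside each other across genes.

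The ages were deposited in separate tables and are set side by side without a test. In WT animals the ratio of the 17-month to the 3-month mean TPM was 28.2 for Spp1, the secreted phosphoprotein osteopontin, and 9.91 for Gpnmb. It was 6.44 for Cst7, an inhibitor of lysosomal cysteine proteases, and 3.66 for Lpl, the lipase that frees fatty acids from lipoproteins. The remaining members ran from 3.38 for Itgax, the integrin subunit CD11c, down to 1.45 for Igf1, against a median of 0.763 over the 11436 genes tested at both ages. For 9 of the 10 members every 17-month animal lay above every 3-month animal in each genotype. Igf1 overlapped between the ages in all 3 genotypes.

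The ratios differed in size by genotype. HET animals had the higher ratio for every member, from 1.52 for Igf1 to 41.1 for Spp1, and HOM animals the lower one, from 1.08 for Igf1 to 16.4 for Spp1. The HOM ratio was 3.99 for Gpnmb, 2.04 for Lpl, 1.68 for Clec7a and 1.14 for Cd9. The genotype differences behind these ratios are tested within each age below.

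**Figure D1:**
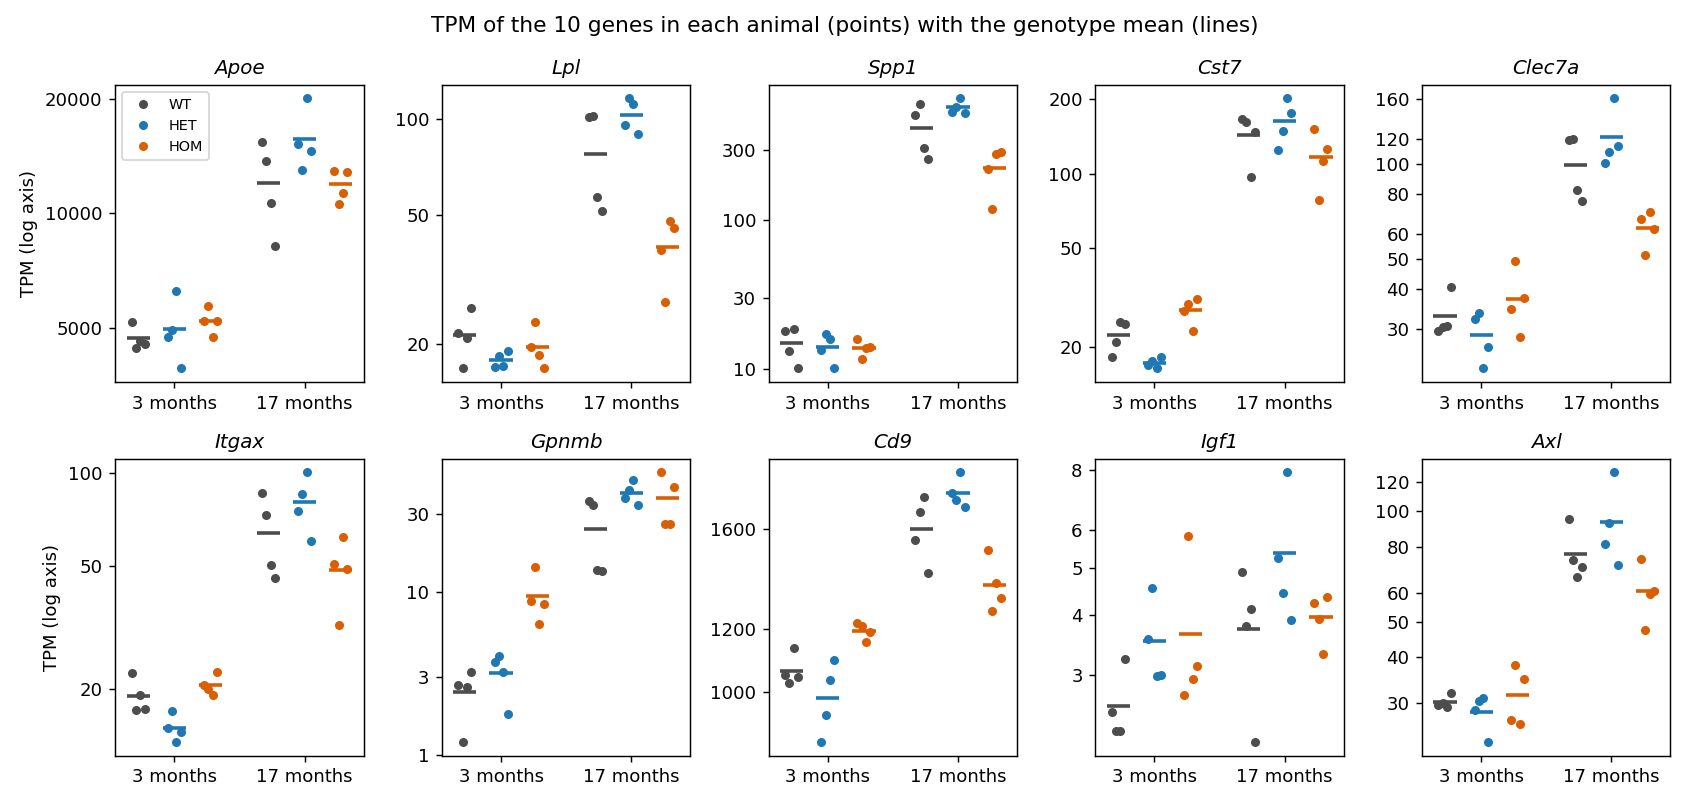
Expression of the 10 genes in every animal, in TPM on log axes, for WT (grey), HET (blue) and HOM (orange) mice at 3 and 17 months. Points are animals, lines are means of 4 animals. The 4 HOM points of Gpnmb lie above all WT points at 3 months, and the 4 HOM points of Lpl, Spp1, Clec7a and Cd9 lie below all HET points at 17 months.

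At 3 months Gpnmb set HOM animals apart. It was 2.69, 1.20, 2.62 and 3.25 TPM in the 4 WT animals, 3.70, 4.06, 3.23 and 1.78 TPM in the HET animals, and 8.72, 14.1, 6.31 and 8.35 TPM in the HOM animals. Every HOM animal was above every WT and HET animal, while the WT and HET values overlapped. The log2 fold change of HOM against WT was 1.58 ± 0.26 (SE), which missed the threshold in limma with Benjamini-Hochberg adjustment over all 11587 genes (adjusted p = 0.0512). The outcome lies at the edge of the threshold: the adjusted p was 0.0228 in the RPKM tables and 0.0811 with a term for sex, and ran from 0.0356 (without HET-8304) to 0.195 (without HOM-8282) when each animal was left out in turn. Fold changes are of TPM + 1 and so understate the difference of a gene this low.

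No member was called between HOM and WT at 3 months, where limma called 0.0604% of all genes. At an unadjusted p under 0.05, 3 members were higher in HOM animals (Gpnmb, Cst7, Cd9) and 0 were lower, while 2.57% of all genes were higher and 17.1% lower. Gpnmb and Cd9 were the 2 members whose HOM values all lay above the WT values, which held for 1.78% of all genes. Cd9 was 1051, 1028, 1136 and 1046 TPM in WT animals and 1221, 1212, 1158 and 1191 TPM in HOM animals. The HOM animals were high and close together, and the log2 fold change was 0.17 ± 0.069 (adjusted p = 0.212). The median log2 fold change was 0.16 over the members and -0.10 over all genes tested. Summed endothelial and mural markers were lower in these HOM libraries (68.1 to 109 TPM) than in WT ones (122 to 358 TPM), and choroid plexus and ependymal markers were too (237 to 554 against 611 to 1022 TPM). HOM libraries were also deeper than WT ones, at 30.6 to 33.8 M alignments against 21.8 to 28.4 M. The part of these in the member values was not tested.

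HET animals at 3 months held the lowest TPM values of Cst7 and Itgax, at an age when most genes were lower in HET than in WT animals. Cst7 was 18.2, 20.9, 25.2 and 24.7 TPM in WT animals, 16.8, 17.5, 16.3 and 18.1 TPM in HET animals, and 28.0, 29.6, 23.2 and 31.3 TPM in HOM animals. The HET values were all below the WT values, though the highest HET and the lowest WT animal nearly met, and 3 of the 4 HOM animals were above every WT animal. Itgax was 22.4, 17.1, 19.1 and 17.1 TPM in WT, 14.9, 16.9, 13.4 and 14.5 TPM in HET and 20.5, 19.9, 19.0 and 22.6 TPM in HOM animals. The WT and HOM values of Itgax overlapped, and HET values lay below both. Against WT, the HET log2 fold changes were -0.34 ± 0.11 for Cst7 and -0.32 ± 0.098 for Itgax (adjusted p = 0.118 and 0.104). These were the 2 members lower without overlap, against 9.99% of all genes, and the same 2 had an unadjusted p under 0.05 in that direction, against 19.2%. The latter count lay near the share of all genes. The median log2 fold change was -0.11 over the members and -0.089 over all genes tested. In RPKM the Cst7 values of the 2 genotypes overlapped, with 7.29 in HET-8309 and 6.87 in WT-8322. No member was called, where limma called 0.0432% of genes. Summed neuronal markers were higher in HET (11.6 to 44.3 TPM) than in WT libraries (4.94 to 8.57 TPM), and their part in these values was not tested.

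Between HOM and HET animals at 3 months, 4 members lay higher without overlap, against 1.5% of all genes: Cst7, Itgax, Gpnmb and Cd9. The same 4 had an unadjusted p under 0.05, against 3.3% of genes in that direction, and 0 passed the adjusted threshold, which 0.0259% of genes passed. The log2 fold change was 0.66 ± 0.11 for Cst7 (adjusted p = 0.0811), 1.29 ± 0.26 for Gpnmb (adjusted p = 0.193), 0.43 ± 0.098 for Itgax (adjusted p = 0.289) and 0.28 ± 0.069 for Cd9 (adjusted p = 0.342). All 4 HET animals of this age were male and 2 of the 4 HOM animals were. Leaving out HET-8309 gave 2 calls, Cst7 and Cd9, with adjusted p = 0.0335 and 0.0446, and leaving out WT-8322 gave 1, Cst7 (adjusted p = 0.0422). Several marker sums also lay apart here. They were lower in HOM than in HET libraries for astrocytes (90.7 to 116 against 125 to 254 TPM), oligodendrocytes (366 to 656 against 673 to 2520 TPM) and neurons (6.01 to 7.89 against 11.6 to 44.3 TPM), and higher for T and NK cells (12.8 to 30.4 against 7.13 to 11.9 TPM). HOM libraries were also deeper than HET ones, at 30.6 to 33.8 M alignments against 26.3 to 28.9 M. The part of these in the member values was not tested. The remaining members, Apoe, Lpl, Spp1, Clec7a, Igf1 and Axl, overlapped between every pair of genotypes at this age. Over the 12 animals Apoe ran from 3919 to 6248 TPM, Lpl from 16.7 to 25.9, Spp1 from 10.1 to 18.4, Clec7a from 22.5 to 49.2, Igf1 from 2.31 to 5.82 and Axl from 23.4 to 38.0 TPM.

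At 17 months 4 members fell in HOM relative to HET animals: Lpl, Spp1, Clec7a and Cd9. They were called lower in limma at an adjusted p under 0.05, and 0 were called higher. Among all genes 0.17% were called lower and 1.69% higher, 20 and 199 genes, and with libraries centred on their median the split was 94 lower and 153 higher. Apoe also lay below without overlap in TPM, so that 5 members did, against 1.17% of all genes. In RPKM the Apoe values overlapped, with 4438 in HET-7794 and 5231 in HOM-7901. At an unadjusted p under 0.05, 7 members were lower and 0 higher, against 2.67% and 10.3% of all genes. All 10 log2 fold changes were below 0, with a median of -0.55, beside 0.069 over all genes tested. Gpnmb turned to 0.31 with a term for sex, and Apoe gave 0 under quantile normalization. In bulk libraries fewer cells in a state and less RNA per cell cannot be told apart.

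Lpl was 95.7, 115, 111 and 89.5 TPM in HET animals, and 39.1, 26.9, 48.2 and 45.6 TPM in HOM animals. The highest HOM animal was far under the lowest HET animal, and the log2 fold change was -1.37 ± 0.23 (adjusted p = 0.00751). Lpl was called whichever animal was left out.

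Spp1 was 539, 584, 664 and 532 TPM in HET animals and 222, 119, 279 and 289 TPM in HOM animals. All HOM animals were well below all HET animals, with HOM-7893 the lowest, and the log2 fold change was -1.42 ± 0.29 (adjusted p = 0.0244). Without HOM-7893 the log2 fold change was -1.14 and the adjusted p 0.0568, and leaving out HET-7794, HET-7795 or HOM-7835 ended the call as well.

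Clec7a encodes Dectin-1, a receptor for fungal and other glucans. It was 100.3, 109, 161 and 114 TPM in HET animals and 67.0, 51.3, 70.3 and 62.2 TPM in HOM animals. HET-7795 was the highest animal and the groups did not overlap. The log2 fold change was -0.92 ± 0.18 (adjusted p = 0.0174), with an adjusted p of 0.0561 without HET-7795 and 0.0706 without HOM-7893.

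Cd9 differed least of the 4. It was 1779, 1742, 1888 and 1708 TPM in HET animals and 1506, 1263, 1371 and 1312 TPM in HOM animals, with HOM-7835 nearest to the HET values. The log2 fold change was -0.39 ± 0.088 (adjusted p = 0.0413). It was called in 7 of 22 alternative settings, and of the 12 fits that left out an animal the call held in 3, those without WT-7785, WT-7943 or HOM-7835.

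Sex and genotype were nearly inseparable in this comparison, since the 4 HET animals were female by Y-linked transcripts and 3 of the 4 HOM animals were male. With a term for sex all 4 log2 fold changes stayed below 0, at -1.07 for Lpl, -1.02 for Spp1, -0.81 for Clec7a and -0.48 for Cd9, and all 4 calls ended (adjusted p = 0.113, 0.222, 0.148 and 0.0796). The female HOM animal, HOM-7901, was below every HET animal in each of the 4 genes, at 45.6, 289, 62.2 and 1312 TPM. Summed endothelial and mural markers were higher in HOM (332 to 457 TPM) than in HET libraries (135 to 212 TPM), and choroid plexus and ependymal markers were too (1531 to 4365 against 979 to 1396 TPM), while microglial markers overlapped (17357 to 23322 against 17443 to 25523 TPM). HOM libraries were also deeper, at 40.7 to 46.4 M alignments against 30.6 to 37.1 M. The part of these in the member values was not tested.

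The other members were lower in HOM than in HET animals without a call. Axl, a receptor tyrosine kinase that helps macrophages bind dying cells, was 81.5, 93.1, 128 and 71.5 TPM in HET and 74.2, 47.5, 59.5 and 60.7 TPM in HOM animals. Its log2 fold change was -0.60 ± 0.18 (adjusted p = 0.145), and it was called with median centring (adjusted p = 0.0468). Over HET and HOM animals together Itgax ran from 32.2 to 100.7 TPM, Cst7 from 78.4 to 202 TPM and Igf1 from 3.32 to 7.90 TPM, and the genotypes overlapped in each. Itgax gave -0.74 ± 0.23 (adjusted p = 0.172) and Cst7 -0.49 ± 0.22 (adjusted p = 0.359). Apoe, with HET values of 15208, 13045, 20048 and 14615 TPM and HOM values of 12955, 10570, 11346 and 12876 TPM, was close to touching between the groups (log2 fold change -0.38 ± 0.18, adjusted p = 0.405). Gpnmb differed little (-0.16 ± 0.33, adjusted p = 0.891).

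**Figure D2:**
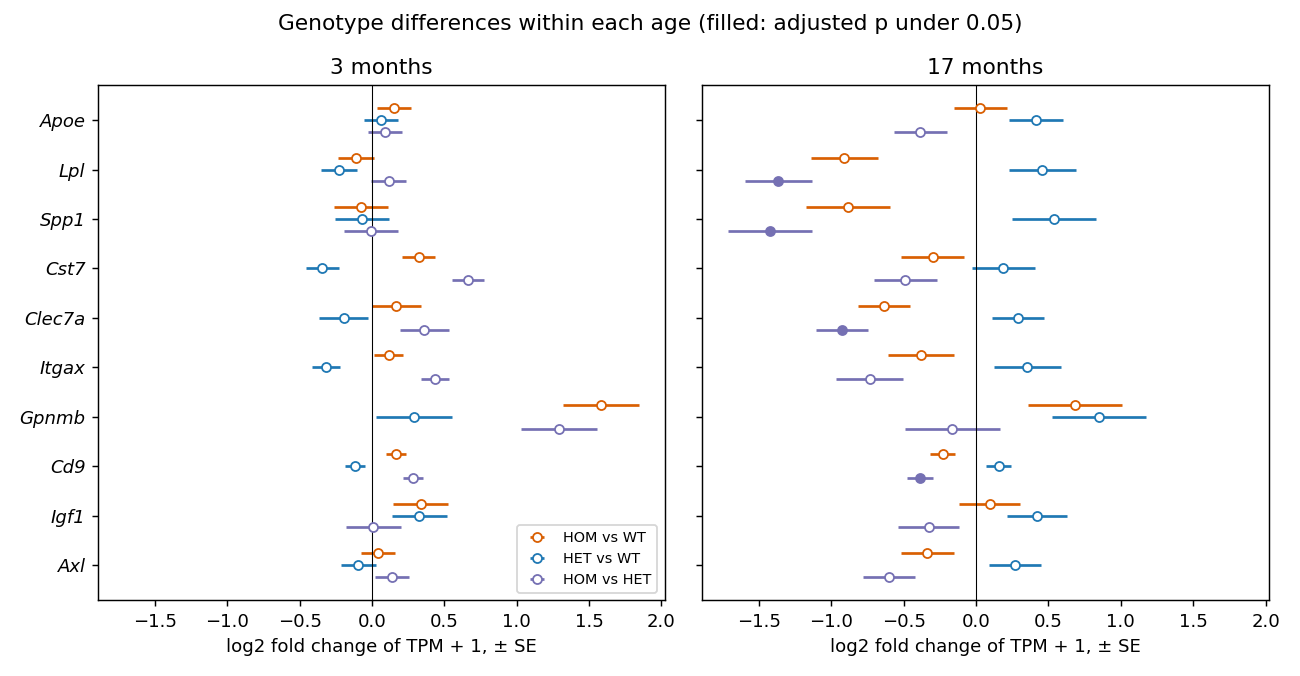
Log2 fold changes of TPM + 1 (x axis) for each gene (y axis) within 3 months (left) and 17 months (right), for HOM against WT (orange), HET against WT (blue) and HOM against HET (purple); bars are standard errors from limma and filled points have an adjusted p under 0.05. The 4 filled points are Lpl, Spp1, Clec7a and Cd9 in HOM against HET at 17 months.

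Several members varied widely between the WT animals of 17 months. Lpl was 100.9 and 101.5 TPM in WT-7782 and WT-7783, and 56.9 and 51.8 TPM in WT-7785 and WT-7943. Spp1 was 516 and 605 TPM in the former pair and 307 and 260 TPM in the latter. Gpnmb was 35.7 and 34.0 against 13.6 and 13.4 TPM, so that the latter pair lay below every HET and HOM animal. Clec7a, Itgax, Apoe, Cst7 and Axl were also lower in WT-7785 and WT-7943 than in the other pair, while Cd9 and Igf1 did not split this way. WT-7785 was male and WT-7943 female. WT-7782 had 16.7 M alignments, against 34.5 M in WT-7783, 35.7 M in WT-7785 and 34.7 M in WT-7943. The WT coefficient of variation was 51.1% for Gpnmb, 39.1% for Spp1 and 34.9% for Lpl, against 9.55% for Cd9.

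Against these WT animals 0 members were called in HOM animals at 17 months, where limma called 0.712% of all genes, 55 higher and 29 lower (204 and 405 with median centring). At an unadjusted p under 0.05, 4 members were lower (Lpl, Spp1, Clec7a, Cd9), against 5.62% of all genes. Lpl and Clec7a lay lower without overlap, against 4.05% of all genes. The log2 fold change was -0.91 ± 0.23 for Lpl (adjusted p = 0.0762), -0.63 ± 0.18 for Clec7a (adjusted p = 0.0959) and -0.88 ± 0.29 for Spp1 (adjusted p = 0.133). Lpl and Clec7a passed in the RPKM tables (adjusted p = 0.03 and 0.0233) and with median centring or quantile normalization. Gpnmb pointed the other way, at 0.68 ± 0.33 (adjusted p = 0.282), with 53.7, 26.1, 26.1 and 43.8 TPM in HOM animals all above the lower WT pair and overlapping the higher. Summed oligodendrocyte markers were 2355 to 6590 TPM in WT and 803 to 2021 TPM in HOM libraries. Markers of endothelial and mural cells (332 to 457 against 234 to 303 TPM), of choroid plexus and ependyma (1531 to 4365 against 313 to 1449 TPM) and of monocytes (189 to 942 against 52.6 to 151 TPM) were higher in HOM than in WT libraries. HOM libraries were deeper than WT ones here as well, at 40.7 to 46.4 M alignments against 16.7 to 35.7 M. The part of these in the member values was not tested.

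In HET animals of 17 months the mean of every member was above the WT mean. All 10 log2 fold changes against WT were above 0, with a median of 0.38 beside -0.012 over all genes, but 0 were called, where limma called 0.237% of genes. Gpnmb (0.85 ± 0.33, adjusted p = 0.408) and Apoe (0.41 ± 0.18, adjusted p = 0.505) had an unadjusted p under 0.05, against 2.75% of genes in that direction. None of the members lay above WT without overlap, as 1.29% of genes did. Gpnmb was 37.3, 41.8, 48.2 and 34.1 TPM in HET animals. The lowest of these lay within the higher WT pair, and the others lay above every WT animal (at most 35.7 TPM). Oligodendrocyte markers were lower in HET (419 to 1244 TPM) than in WT libraries, as were endothelial and mural markers (135 to 212 against 234 to 303 TPM), and their part was not tested. The 3 comparisons of an age share animals, so their values are not independent of each other.

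The genotype effects were then compared between the ages. For HOM against WT the change from 3 to 17 months was below 0 for all 10 members, though Apoe turned above 0 with quantile normalization (0.30), with scaling to microglial markers (0.063) and without WT-7782 (0.0085). Of the 10, 0 passed the threshold, which 0.254% of 11436 genes passed (23 higher and 6 lower, or 88 and 366 with median centring). The difference was -0.40 ± 0.11 for Cd9 (adjusted p = 0.0675), -0.80 ± 0.26 for Clec7a (adjusted p = 0.0925), -0.80 ± 0.28 for Lpl (adjusted p = 0.111) and -0.90 ± 0.44 for Gpnmb (adjusted p = 0.24). At an unadjusted p under 0.05 stood 5 members (Lpl, Spp1, Cst7, Clec7a, Cd9), against 21.8% of genes. Cd9, Clec7a and Lpl passed with median centring, where the median over all genes moved from 0.16 to -0.029, and Cd9 passed without HET-8304 or without HET-7796 (adjusted p = 0.0446 and 0.0398). For HET against WT the change was above 0 for all 10 and 0 passed, against 0.691% of genes. Igf1 turned below 0 with median centring (-0.0063), without WT-7943 (-0.087) and without HET-7795 (-0.080). At an unadjusted p under 0.05 stood 3 members (Lpl, Itgax, Cd9), against 14.4% of genes, and Lpl, at 0.69 ± 0.28, had an adjusted p of 0.253.

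Gpnmb and Lpl, both genes of lipid-laden and lysosome-rich macrophages, did not keep a constant proportion across genotypes. This ratio was chosen after the values were seen and is given without a test. At 3 months Gpnmb ran from 7.18 to 12.6 TPM per 100 TPM of Lpl in WT, from 9.37 to 22.1 in HET and from 34.2 to 60.6 in HOM animals. At 17 months it ran from 23.8 to 35.4 in WT, from 36.2 to 43.6 in HET and from 54.1 to 137 in HOM animals. The HOM animals had the highest proportions at both ages without overlap. At 17 months Lpl was lower in every HOM animal than in every HET and WT animal, while Gpnmb lay above all HET animals in HOM-7835 alone (53.7 against at most 48.2 TPM).

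**Figure D3:**
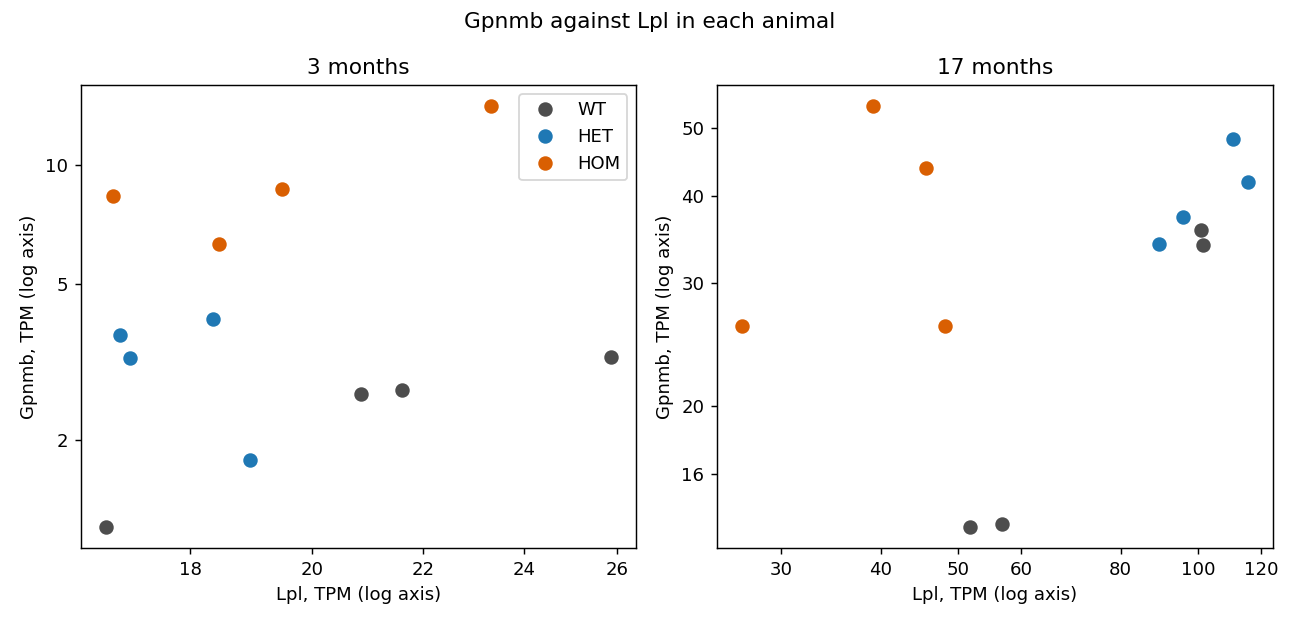
Gpnmb (y axis) against Lpl (x axis) in each animal, both in TPM on log axes, at 3 months (left) and 17 months (right), with 4 points per genotype. At 17 months the WT and HET animals lie along a band from low to high in both genes, and the 4 HOM animals lie to the left of it, at 26.1 to 53.7 TPM of Gpnmb and 26.9 to 48.2 TPM of Lpl.

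Members that are high in the same animals were sought within genotypes, by correlating deviations from the genotype mean of log2(TPM + 1) over the 12 animals of an age. At 17 months all 45 pairs of members had an r above 0, from 0.15 to 0.96, with a median of 0.67. The median over all pairs of tested genes was 0.27, and 18.3% of those pairs exceeded the members' median. At 3 months the members' median was 0.18, with 31 pairs above 0 and 14 below, beside 0.044 over all pairs, of which 39.8% exceeded the members' median. With an exact permutation test over the orders within genotypes and Benjamini-Hochberg adjustment over the 45 pairs of an age, 15 pairs passed by Pearson's r and 11 by Spearman's rho at 17 months, and 0 by either at 3 months. With WT animals left out, a choice made after their spread was seen, the median r was 0.64 at 17 months and 0.27 at 3 months.

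Lpl and Spp1 went together most closely at 17 months, with r = 0.96 and rho = 0.96 (n = 12, exact permutation p = 0.00094 and 0.00174, adjusted p = 0.0141 and 0.0391). Without the 2 animals farthest from the median of Lpl, r was 0.94. Lpl and Itgax gave r = 0.92 and rho = 0.89 (exact permutation p = 0.000868 and 0.00383, adjusted p = 0.0141 and 0.0469), and r = 0.86 without the 2 farthest animals. Gpnmb and Axl had the smallest adjusted p, with r = 0.68 and rho = 0.67 (exact permutation p = 0.000217 and 0.000434, adjusted p = 0.00977 and 0.0195), and r = 0.63 without the 2 farthest. Clec7a took part in 6 of the 15 pairs, with Apoe, Lpl, Spp1, Cst7, Itgax and Axl. Cd9 took part in none of the 15, and its median r with the other 9 members was 0.41, the lowest of the members. That low place depended on sex, which was uneven across genotypes. With sex removed as well as genotype, the r of Cd9 ran from 0.53 (with Cst7) to 0.79 (with Spp1). These 2 pairs stood at 0.15 and 0.40 before, and the median over all 45 pairs was 0.68 with sex removed. The r values with sex removed were not tested. Cd9 values also varied least within genotypes, with an SD of 0.11 on the log2 scale, against 0.54 for Gpnmb and a median of 0.20 over all genes tested.

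**Figure D4:**
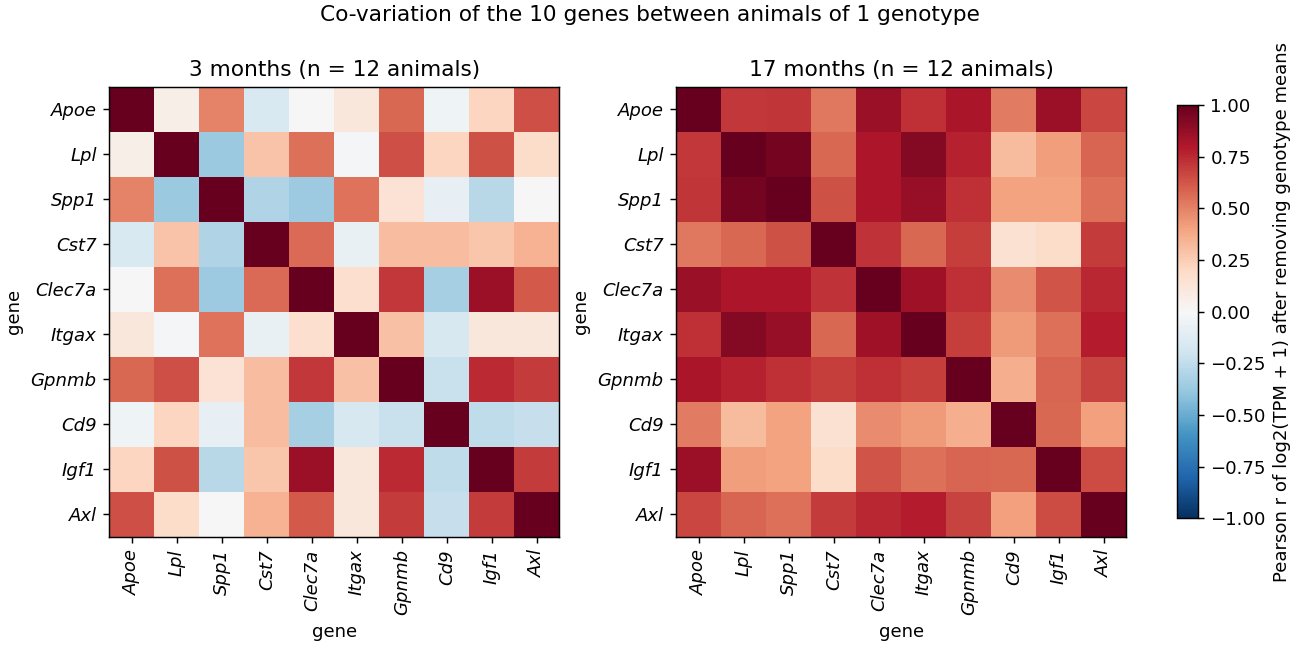
Pearson r between each pair of the 10 genes (both axes) within genotypes, at 3 months (left) and 17 months (right), 12 animals each; red is above 0 and blue below. At 17 months all 45 pairs are above 0 with a median of 0.67, and at 3 months 14 pairs are below 0 and the median is 0.18.

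No relation between a member and the summed markers of another cell type passed the adjustment over the 130 relations of an age, by r or by rho. The nearest was Igf1 with border-associated macrophages, the macrophages of the meninges and perivascular spaces. It gave r = 0.86 and rho = 0.83 at 17 months (n = 12, exact permutation p = 0.00094 and 0.00362, adjusted p = 0.122 and 0.277) and r = 0.80 and rho = 0.84 at 3 months (exact permutation p = 0.00347 and 0.00817, adjusted p = 0.245 and 0.52). Without the 2 animals farthest from the median, r was 0.87 and 0.80.

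The genes that most resembled the members across animals were ranked by their r with the members' mean standardized deviation, taking the lower of the r at the 2 ages over 12 animals each. Among 10436 genes, Mdfic came first with r = 0.94 at 3 months and 0.83 at 17 months. It was followed by Ggh, a lysosomal hydrolase of folates (0.75 and 0.88), and Nceh1, which splits cholesteryl esters (0.80 and 0.75). Arl6ip1, Tmem106a, Myof, Hivep2, Tmem126a, Tmem9b and Slc39a10 completed the first 10, down to a lower r of 0.68. These values describe the ranking and carry no test.

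A list of 31 further disease-associated genes had 28 tested members at the younger and 30 at the older age, and 0 were called in any of the 6 comparisons in limma. Between HOM and WT at 3 months 7 of the 28 had an unadjusted p under 0.05 in the higher direction and 2 in the lower, against 2.57% and 17.1% of all genes. Their median log2 fold change was -0.00080. Between HOM and HET at 17 months 8 of the 30 had an unadjusted p under 0.05 in the lower direction and 1 in the higher, against 2.67% and 10.3% of all genes. Their median log2 fold change was -0.19. Lgals3, the lysosome-damage lectin galectin-3, had the largest log2 fold change between HOM and WT at 3 months, at 0.79 ± 0.16 (adjusted p = 0.0785), and Lilrb4a at 17 months, at 0.54 ± 0.19 (adjusted p = 0.158). Of 15 homeostatic genes, Gpr34, a receptor for lysophosphatidylserine, fell in HOM animals at 17 months, by 0.83 against WT (log2, SE 0.14, adjusted p = 0.0349) and by 0.73 against HET (SE 0.14, adjusted p = 0.0138). Among all genes 0.712% were called in the first of these comparisons, and 0.17% were called lower in the second. No other homeostatic gene was called. Between HOM and WT at 17 months 13 of the 15 lay below 0 and 2 above, with a median of -0.20 beside 0.054 over all genes. Of the 15, 4 had an unadjusted p under 0.05 in the lower direction, against 5.62% of all genes. Olfml3 had the largest log2 fold change of the 15 between HOM and WT at 3 months, at -0.23 ± 0.087 (adjusted p = 0.191).

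None of the 27 tested receptors, ligands and partners of the members was called within an age. Cd44, which binds osteopontin, stood at 0.57 ± 0.18 (adjusted p = 0.147) in HOM against WT at 3 months and at 0.66 ± 0.32 (adjusted p = 0.291) at 17 months. Of the regulators with a mean of 2 TPM or more, Tfeb stood at -0.22 ± 0.066 (adjusted p = 0.13) at 3 months and Pparg at 0.93 ± 0.37 (adjusted p = 0.203) at 17 months. Pparg lay under that mean at 3 months and stood at 0.51 ± 0.20 (adjusted p = 0.188) there, and the oxysterol receptor gene Nr1h2 was called for a HOM effect that differed between the ages (0.63 ± 0.12, adjusted p = 0.0406). Of 18 immediate early and dissociation genes, Zfp36 and Nr4a1 rose in HOM against WT at 17 months, by 0.71 ± 0.12 and 1.49 ± 0.30 on the log2 scale (adjusted p = 0.0409 and 0.0468). Among all genes 0.712% were called in that comparison. All 18 were above 0 there, with a median of 0.54, and the members' median was -0.32. In HET against WT at 17 months all 18 were above 0 too, with a median of 0.37, and the members' median was 0.38. Of the same 18, the heat shock gene Hspa1b differed most in HOM against WT at 3 months, at -1.06 ± 0.82 (adjusted p = 0.488).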

How the data were processed

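Members and gene lists were chosen with earlier results of these data known. The authors deposited TPM and RPKM tables for each age, the latter with alignments per library. The submitters' processing notes list Salmon 0.8.2, TopHat2 2.1.1, DESeq2, Partek 7.17.0918 and the build mm10; which tool made which table is not given in the sources used here. RPKM headers give each animal's genotype and thereby grouped the TPM columns; hemi at 17 months was taken as HET.

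Tests used log2(TPM + 1) in limma 3.58.1 (R 4.3.3), with a trend, a mean per genotype, 12 animals per age and a filter on genes (mean over these animals of 1 TPM or more), which kept 11587 and 11792. P-values are two-sided and adjusted by Benjamini-Hochberg over all genes, with calls under 0.05. TPM columns summed to 78.9% to 90.7% of their nominal total. Scripts were tested on simulated data. Named genes are the members, genes called in the other lists or, failing that, the largest HOM against WT change per age, and the 10 most like the members, where genes with a mean under 2 TPM at that age were left out of these last 2 parts. Sex was read from 4 Y-linked genes, with male above 5 TPM. Scaling to microglial markers, leaving out WT animals and a fit on females (HET against WT, 17 months) are settings chosen after seeing the data.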

Additional observations from a re-analysis of the deposited data

Results flagged for a closer look

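Among the 60 groups of 4 animals (10 genes, 3 genotypes, 2 ages), 2 held an animal whose gap to its neighbour exceeded the critical share of the group's range for groups of this size (Dixon's test), and chance alone gives about 1 in 20. Clec7a was 40.7 TPM in WT-8326, the only male WT animal of 3 months, against 29.5 to 30.6 TPM in the others (gap 0.907 of the range). Igf1 was 5.82 TPM in HOM-8285 at 3 months, against 2.73 to 3.14 TPM in the others (gap 0.868). HOM-8285 also had the highest Gpnmb, Clec7a, Lpl, Apoe and Axl of the HOM animals at that age. Without it the log2 fold change of Gpnmb in HOM against WT was 1.38 (adjusted p = 0.138, limma).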

How the results depend on the processing

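No paired analysis was possible because the columns carry animal numbers and not the replicate numbers of the labels, so no replicate block could be set. Of the members, HOM against WT at 3 months gave 1 call (Gpnmb) with a minimum of 5 TPM, median centring, the RPKM tables, only the 2 groups or array weights. Array weights gave 4 calls in HET against WT and 4 in HOM against HET at 3 months, and 4, 1 and 9 at 17 months in HOM against WT, HET against WT and HOM against HET. HOM against HET at 17 months gave 2 calls without a filter and 0 with a sex term. HOM against WT at 17 months gave 2 with median centring, quantile normalization or RPKM, and 2 (Lpl lower, Gpnmb higher) when scaled to microglial markers, which was chosen after seeing the data and moved the median of all genes from 0.054 to 0.29. The HOM difference between ages gave 3 calls with median centring and 1 with RPKM. Leaving out each animal gave 1 to 4 calls for HOM against HET at 17 months, 0 to 2 at 3 months, 0 to 1 for HOM against WT at 3 months and for the HOM difference between ages, and 0 elsewhere. The median r was 0.63 with RPKM and 0.60 to 0.71 without 1 animal at 17 months, and 0.081 to 0.27 without 1 animal at 3 months (0.27 without WT). Signs turned for Gpnmb with a sex term, to -0.095 in HET against WT at 3 months and to 0.31 in HOM against HET at 17 months, for Cd9 in HOM against WT at 17 months when scaled to microglial markers (0.0038), and Apoe gave 0 in HOM against HET at 17 months under quantile normalization. They also turned for Apoe and Igf1 in the differences between ages, as given there. Further signs turned for members without a call. Apoe did so in HOM against WT at 17 months in 6 of 22 settings. At 3 months Spp1 turned in 6 of 22 for HET against WT and in 4 of 22 for each HOM comparison. Igf1 turned in 5 of 21 for HOM against HET at 3 months. In other comparisons Apoe, Lpl, Clec7a, Axl and Igf1 turned in 3 settings or fewer. With a minimum of 5 TPM Igf1 was not tested. The causes were not tested. Calls over all genes ran from 1 to 1836 for HOM against WT, 1 to 3507 for HET against WT and 1 to 3074 for HOM against HET at 3 months (7, 5 and 3 as reported), and from 5 to 4306, 0 to 659 and 45 to 1520 at 17 months (84, 28 and 219), where the highest counts came from array weights or scaling to microglial markers. For the differences between ages they ran from 26 to 3698 (HOM, 29 as reported) and 13 to 194 (HET, 79). Without 1 animal, in the same order, they ran from 2 to 118, 3 to 467 and 3 to 66 at 3 months, from 1 to 368, 0 to 239 and 104 to 246 at 17 months, and from 1 to 667 and 19 to 332 between ages. Igf1 and, at 3 months, Gpnmb in WT and HET animals lie at a few TPM, where few reads stand behind each value.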
